A study of Mus musculus with 24 samples.

Results

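Transcript levels of 9 Notch pathway genes, Hes1, Hes5, Hey1, Heyl, Notch1, Dll1, Dll4, Jag1 and Rbpj, were followed in RNA sequencing of mouse dorsal hippocampus, out of 19661 genes listed in the expression table. The set was chosen by its measured training differences: in earlier readings of these same RPKM values Hes1 was lower and the ligand gene Dll4 higher after training. For that reason the training differences of the 9 genes are given as a description, with no p, and nothing is read from which of them passed a threshold. The 24 libraries fall into 4 groups of 6: C57BL/6J wild type from the home cage, C57BL/6J wild type killed 30 minutes after Object Location Memory training, Baf53b+/- mutants from the home cage, and Baf53b+/- mutants killed 30 minutes after the same training. In this task a mouse explores an arena in which objects stand at fixed places. Baf53b is the protein of Actl6b, an actin-related subunit of the chromatin remodelling complex of neurons, and 1 of its alleles is mutated in the heterozygotes. The heterozygotes carry the strain background B6J.129S6-Actl6b<tm1Grc> and the wild types do not, so strain and genotype cannot be told apart. Home cage animals were the only controls, so the learning itself, handling and an unfamiliar arena cannot be told apart either. The labels state no ages.

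Notch signalling passes between touching cells. A ligand of the Delta or Jagged family on the surface of one cell binds a Notch receptor on its neighbour, proteases release the receptor's intracellular part, and this part enters the nucleus. There it joins the DNA-binding protein RBPJ and a Mastermind coactivator and switches on genes of the Hes and Hey families, which encode transcriptional repressors. Hes1 protein represses its own gene, and the Hes1 transcript is short-lived. In the adult hippocampus the pathway is known from the neural stem cells of the dentate gyrus, from astrocytes, from blood vessels, where Dll4, Hey1 and Heyl are prominent, and from neurons, where Notch1 has been linked to synaptic activity and memory.

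The libraries held between 28.4 M and 47.0 M reads (median 34.4 M), as recovered from the steps in the values. Actl6b fitted the labels: it averaged 51.3 and 50.8 RPKM (reads per kilobase of transcript and per M reads) in home cage and trained wild types and 30.0 and 28.3 RPKM in the matching heterozygotes, and the genotypes did not overlap. The early genes Fos, Arc and Egr1 were higher in every trained animal than in every home cage animal of the same genotype, with Fos 7.56-fold higher in wild types and 6.78-fold higher in heterozygotes. Markers of hippocampal neurons were abundant, from 19.2 RPKM for Grin2b to 1304 RPKM for Camk2a. Choroid plexus markers lay more than 1 log2 unit above their median in 6 libraries, 1 in each wild-type group and 2 in each heterozygous group. Ddx3y was above 1 RPKM in 14 libraries, taken as males: 5 of 6 among home cage heterozygotes and 3 of 6 in each other group. In bulk tissue, fewer cells of a type and less RNA per cell cannot be told apart.

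Levels of the 9 genes spread widely. RPKM is scaled by length, so levels can be set side by side across genes. Hey1 was the most abundant, at a mean of 21.2 RPKM over all 24 libraries, followed by Hes1 at 5.63, Notch1 at 4.06, Hes5 at 3.11, Dll1 at 2.09, Rbpj at 1.89, Jag1 at 1.67, Heyl at 0.927 and Dll4 at 0.755 RPKM. By mean level Hey1 stood at percentile 84.0 of all listed genes, Hes1 at percentile 58.6 and Dll4 at percentile 34.5. In the 12 home cage animals the ranges of Hey1 (17.3 to 21.2 RPKM), Hes1 (5.76 to 7.74 RPKM) and Notch1 (3.34 to 4.43 RPKM) did not touch. Hes5 (2.57 to 5.41 RPKM) overlapped Notch1, and Dll1 (1.68 to 2.33 RPKM), Rbpj (1.64 to 2.12 RPKM) and Jag1 (1.34 to 1.78 RPKM) overlapped one another. Heyl (0.680 to 1.25 RPKM) overlapped Dll4 (0.525 to 0.722 RPKM). After training Hes1 ran from 3.74 to 5.89 RPKM and no longer stood clear of Notch1, which ran from 3.80 to 4.93 RPKM. With the length of each gene's principal transcript, these levels come to about 1370 to 2894 reads per library for Hey1, 180 to 452 for Hes1 and 68 to 139 for Dll4. Counting error alone is then 4.70% to 7.46% of the value for Hes1 and 8.47% to 12.1% for Dll4.

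**Figure D1:**
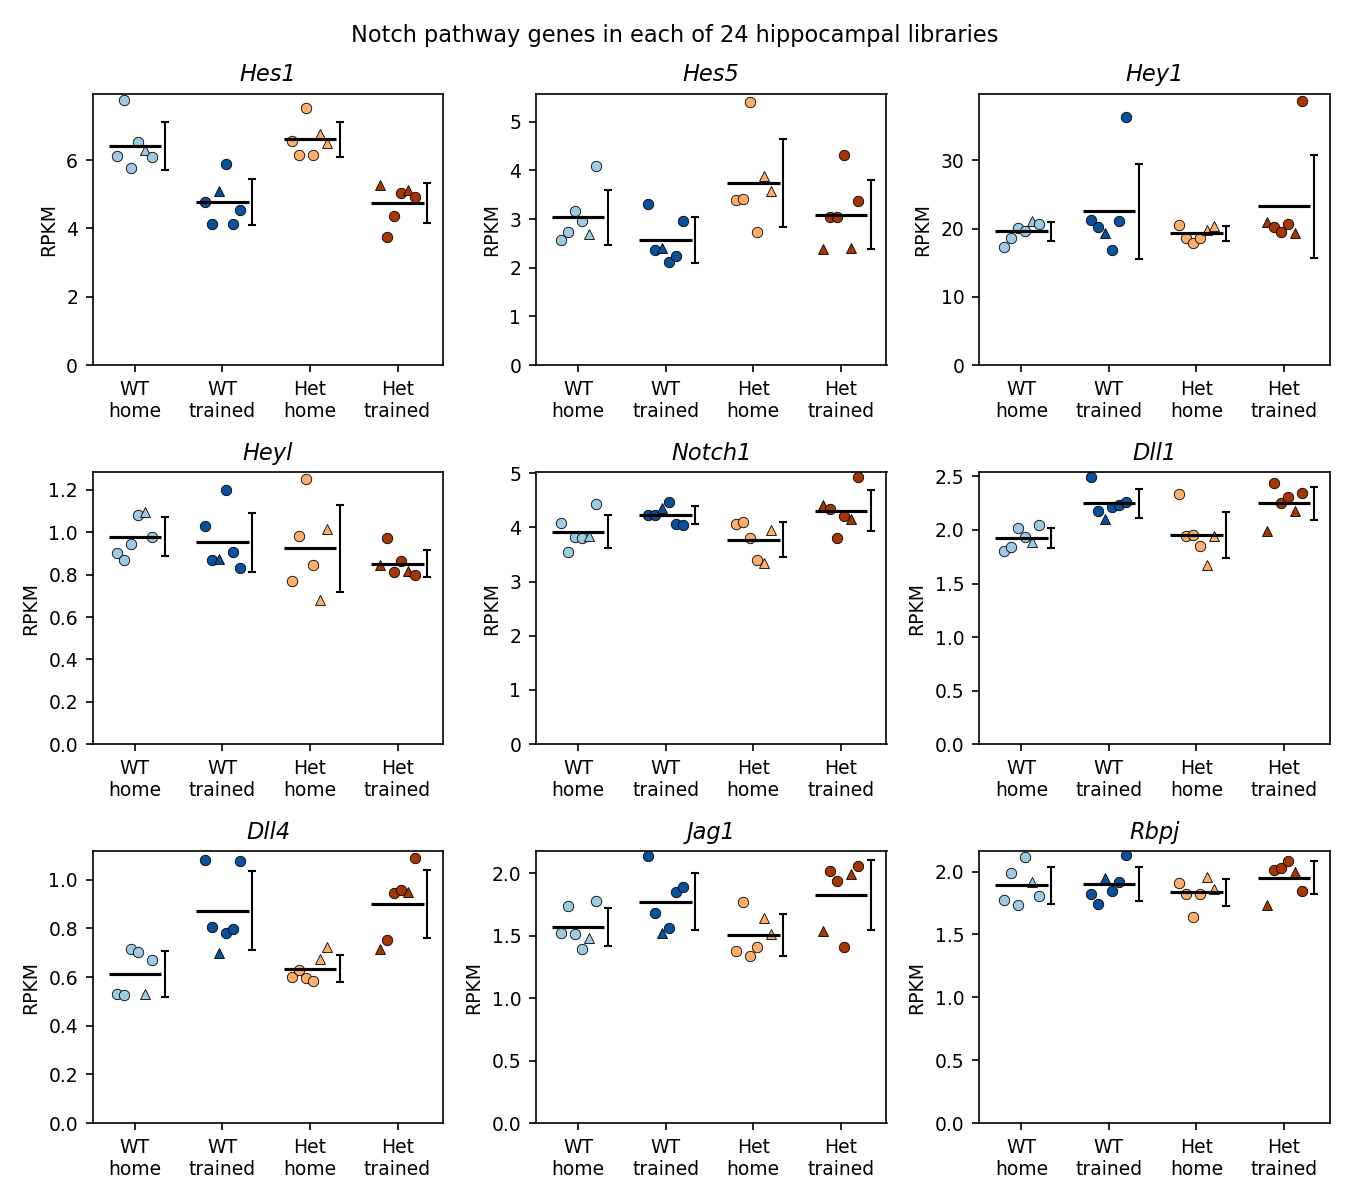
Each panel plots the RPKM of a gene in every library, by group on the x axis (WT, wild type; Het, Baf53b+/-; home, home cage), with a line at the group mean and a bar of 1 SD (n = 6); triangles mark the 6 choroid plexus rich libraries. Hes1 sits at 5.76 RPKM or above in all home cage animals and at 5.89 RPKM or below in all trained animals, and Dll4 stays at 0.722 RPKM or below in the home cage.

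Hes1 (mm9 chromosome 16, 30065443 to 30067882) encodes the repressor that is the best known target of Notch. In home cage wild types it ran from 5.76 to 7.74 RPKM with a median of 6.20, and in trained wild types from 4.12 to 5.89 RPKM with a median of 4.67. In home cage heterozygotes the values ran from 6.15 to 7.52 RPKM with a median of 6.52, and in trained heterozygotes from 3.74 to 5.28 RPKM with a median of 4.97. The trained heterozygotes thus all lay below every home cage heterozygote, while 1 trained wild type, at 5.89 RPKM, stood just above the lowest home cage wild type. The group means were 6.42 ± 0.697 and 4.76 ± 0.670 RPKM in wild types and 6.61 ± 0.507 and 4.74 ± 0.585 RPKM in heterozygotes (SD, n = 6), so that trained animals had 0.742 and 0.717 of the home cage level. On the log2(RPKM + 0.5) scale the difference was -0.40 (SE 0.08) in wild types and -0.44 (SE 0.08) in heterozygotes. Leaving out any single library kept the wild-type difference between -0.46 and -0.35 and the heterozygous one between -0.48 and -0.39.

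Hes5 (chromosome 4, 154335032 to 154336480), a second Hes repressor and a marker of neural stem cells, varied more between animals. Home cage wild types ran from 2.57 to 4.09 RPKM with a median of 2.85, and trained wild types from 2.12 to 3.31 RPKM with a median of 2.39. Among heterozygotes, home cage values ran from 2.74 to 5.41 RPKM with a median of 3.50 and trained values from 2.39 to 4.31 RPKM with a median of 3.04. The groups overlapped in both genotypes, although 4 of 6 trained wild types and 2 of 6 trained heterozygotes lay below every home cage animal of their genotype. The training difference was -0.20 (SE 0.13) in wild types and -0.24 (SE 0.13) in heterozygotes on the log2(RPKM + 0.5) scale. The promoter of Hes5, from 250 bases before to 50 bases after the start in RefSeq (GRCm38.p6, chr4:154960673-154960972, plus strand), is shown because it holds the core letters of the RBPJ site, TGGGAA, at 2 places (capitals), at -226 on the reverse strand and at -82 on the forward strand.
Hes5 promoter: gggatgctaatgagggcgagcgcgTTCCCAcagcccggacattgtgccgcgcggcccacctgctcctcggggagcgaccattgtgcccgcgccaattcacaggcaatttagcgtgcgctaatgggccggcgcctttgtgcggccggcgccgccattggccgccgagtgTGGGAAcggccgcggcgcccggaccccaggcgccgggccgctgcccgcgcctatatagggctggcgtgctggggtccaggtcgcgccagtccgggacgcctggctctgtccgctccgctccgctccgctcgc
Of 32851 promoters of that length in the table, 25.6% hold TGGGAA on either strand, so a match is a description and not a bound site. The table had entries for 6 of the 9 genes.

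The Hey genes encode repressors related to Hes and are prominent in vessels. Hey1 (chromosome 3, 8663359 to 8667038) ran from 17.3 to 21.2 RPKM (median 19.8) in home cage wild types and from 16.9 to 36.4 RPKM (median 20.7) in trained wild types. In heterozygotes it ran from 17.9 to 20.5 RPKM (median 19.2) in the home cage and from 19.3 to 38.6 RPKM (median 20.5) after training. A single trained animal of each genotype, at 36.4 and 38.6 RPKM, stood far above the other trained animals, whose highest values were 21.2 and 20.9 RPKM. The training difference on the log2(RPKM + 0.5) scale was 0.16 (SE 0.15) in wild types and 0.22 (SE 0.15) in heterozygotes, and without those animals it was 0.01 and 0.06. Heyl (chromosome 4, 122910799 to 122927113), known from smooth muscle and pericytes, had a mean under 1 RPKM and so did not pass the expression filter. Its group means were 0.978 ± 0.0922 and 0.952 ± 0.140 RPKM in home cage and trained wild types and 0.925 ± 0.205 and 0.852 ± 0.0634 RPKM in heterozygotes (SD, n = 6), with overlapping ranges. The training difference of Heyl was -0.03 (SE 0.08) in wild types and -0.07 (SE 0.08) in heterozygotes on the log2(RPKM + 0.5) scale, the sign of Hes1 and the opposite of Hey1.

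Dll4 (chromosome 2, 119151520 to 119161402) encodes the Delta ligand of arterial and sprouting endothelium, and it was the least abundant of the 9 genes. Home cage wild types ran from 0.525 to 0.716 RPKM with a median of 0.602, and trained wild types from 0.697 to 1.08 RPKM with a median of 0.802. Home cage heterozygotes ran from 0.585 to 0.722 RPKM with a median of 0.615, and trained heterozygotes from 0.715 to 1.09 RPKM with a median of 0.947. In each genotype 5 of 6 trained animals lay above every home cage animal, and the sixth fell just inside the upper end of the home cage range. Means were 0.613 ± 0.0938 against 0.873 ± 0.163 RPKM in wild types and 0.635 ± 0.0538 against 0.901 ± 0.141 RPKM in heterozygotes (SD, n = 6), a fold of 1.42 in each. On the log2(RPKM + 0.5) scale the difference was 0.30 (SE 0.08) in each genotype, from the fit without an expression filter since Dll4 fell under it, and with a pseudocount of 0.1 it was 0.44 in each. The pseudocount shrinks differences of genes at this level.

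Dll1 (chromosome 17, 15504318 to 15512787), the Delta ligand best known from neural progenitors, was also higher after training. Values ran from 1.81 to 2.04 RPKM (median 1.91) in home cage wild types and from 2.11 to 2.50 RPKM (median 2.23) in trained wild types, with no overlap. In heterozygotes they ran from 1.68 to 2.33 RPKM (median 1.94) in the home cage and from 1.995 to 2.44 RPKM (median 2.28) after training, and 2 of 6 trained animals lay above every home cage animal. The fold was 1.17 in wild types and 1.15 in heterozygotes, and the log2(RPKM + 0.5) difference was 0.18 (SE 0.05) and 0.17 (SE 0.05). Jag1 (chromosome 2, 136907187 to 136942256), a ligand of the Jagged family found in vessel walls and neurons, ran from 1.39 to 1.78 and from 1.52 to 2.14 RPKM in home cage and trained wild types, and from 1.34 to 1.77 and from 1.41 to 2.06 RPKM in the heterozygous groups. Its fold was 1.13 in wild types and 1.21 in heterozygotes, with 3 and 4 of 6 trained animals above every home cage animal of their genotype. Its log2(RPKM + 0.5) difference was 0.13 (SE 0.08) and 0.21 (SE 0.08).

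The promoters of both Delta ligand genes (RefSeq, GRCm38.p6, 250 bases before to 50 after the start) are shown because their transcripts were higher in trained animals. Each also holds a match to a pattern searched for an activity-linked factor, which is a description and not a bound site. In that of Dll4 (chr2:119325534-119325833, plus strand) the capitals mark the Egr motif GCGNGGGCG at -117 and CACTAG, a form of the Hes-bound N-box CACNAG, at -75. In that of Dll1 (chr17:15376883-15377182, minus strand) they mark TGATTCA at -109 and an N-box at 13 bases after the start. TGATTCA matches the loose pattern TGANTCA searched for AP-1, in which N allows any base. This is 1 of 2 starts listed for Dll1, and the other window held none of the 6 motifs searched.
Dll4 promoter: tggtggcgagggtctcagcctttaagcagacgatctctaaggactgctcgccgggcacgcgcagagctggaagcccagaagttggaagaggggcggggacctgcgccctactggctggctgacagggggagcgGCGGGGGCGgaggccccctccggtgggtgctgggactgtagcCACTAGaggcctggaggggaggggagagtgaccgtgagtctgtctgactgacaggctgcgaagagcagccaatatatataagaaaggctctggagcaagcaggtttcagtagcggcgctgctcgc
Dll1 promoter: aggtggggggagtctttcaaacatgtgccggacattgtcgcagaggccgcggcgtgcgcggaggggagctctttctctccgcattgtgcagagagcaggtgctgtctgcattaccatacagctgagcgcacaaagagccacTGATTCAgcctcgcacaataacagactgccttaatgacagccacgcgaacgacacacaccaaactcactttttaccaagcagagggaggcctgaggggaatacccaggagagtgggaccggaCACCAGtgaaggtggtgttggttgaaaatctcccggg
The Egr motif stood in 5.55%, the loose AP-1 pattern in 7.81% and the N-box in 42.5% of all 32851 promoters. TGACGTCA, the cAMP response element, was in 1.79% of all promoters and in none of those of the 6 genes with an entry, and its short form TGACG, in 20.8% of all promoters, was found in that of Jag1. The promoter of Notch1 held 3 N-box matches, 2 of which overlap, and the 2 windows listed for Rbpj held 2 and 1 copies of TGGGAA, with 1 copy in the stretch that the windows share. Both strands were searched throughout.

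Notch1 (chromosome 2, 26313422 to 26359342), the receptor gene, ran from 3.54 to 4.43 RPKM (median 3.84) in home cage wild types and from 4.04 to 4.46 RPKM (median 4.22) in trained wild types. Heterozygotes ran from 3.34 to 4.09 RPKM (median 3.88) in the home cage and from 3.80 to 4.93 RPKM (median 4.27) after training. Of the trained animals, 1 of 6 wild types and 5 of 6 heterozygotes lay above every home cage animal of their genotype. The fold was 1.08 in wild types and 1.14 in heterozygotes, with log2(RPKM + 0.5) differences of 0.10 (SE 0.06) and 0.17 (SE 0.06). Rbpj (chromosome 5, 53947018 to 54048684), whose protein carries the signal to DNA, had nearly equal means in all groups: 1.89 ± 0.146 and 1.90 ± 0.135 RPKM in home cage and trained wild types and 1.83 ± 0.109 and 1.95 ± 0.132 RPKM in heterozygotes (SD, n = 6). Its training difference was 0.01 (SE 0.05) in wild types and 0.07 (SE 0.05) in heterozygotes on the log2(RPKM + 0.5) scale. For Rbpj 1 of 6 trained wild types and 4 of 6 trained heterozygotes lay above every home cage animal of their genotype.

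By limma's moderated test over the 12399 genes that averaged 1 RPKM or more (Benjamini-Hochberg adjusted p under 0.05), 7 of the 9 genes were testable. Of these 7, Hes1 was called in each genotype, against 1.08% of all genes called in wild types (0.121% lower) and 1.03% in heterozygotes (0.145% lower). Averaged over genotypes, which uses the same libraries again, Hes1 and Dll1 were called, against 4.17% of all genes. Without the 6 choroid plexus rich libraries Hes1 was not called in wild types, although its difference of -0.42 there was no smaller. These counts come from the contrast that chose the set, and nothing is read from them. Trained and home cage ranges did not overlap for Dll1 in wild types and for Hes1 in heterozygotes, where 1.08% of all genes lay wholly higher and 0.331% wholly lower. The averaged difference was -0.42 (SE 0.06) for Hes1, -0.22 (SE 0.10) for Hes5 and -0.05 (SE 0.05) for Heyl. It was 0.30 (SE 0.05) for Dll4, 0.19 (SE 0.11) for Hey1, 0.18 (SE 0.04) for Dll1, 0.17 (SE 0.06) for Jag1, 0.13 (SE 0.04) for Notch1 and 0.04 (SE 0.04) for Rbpj. The 3 ligand genes and the receptor gene thus had positive differences in both genotypes, as had Rbpj, at 0.01 and 0.07. The target gene Hey1 was also positive, but at 0.01 and 0.06 without its 1 far higher trained animal of each genotype. Hes1, Hes5 and Heyl had negative differences, those of Heyl (-0.03 and -0.07) being smaller than their SE of 0.08.

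**Figure D2:**
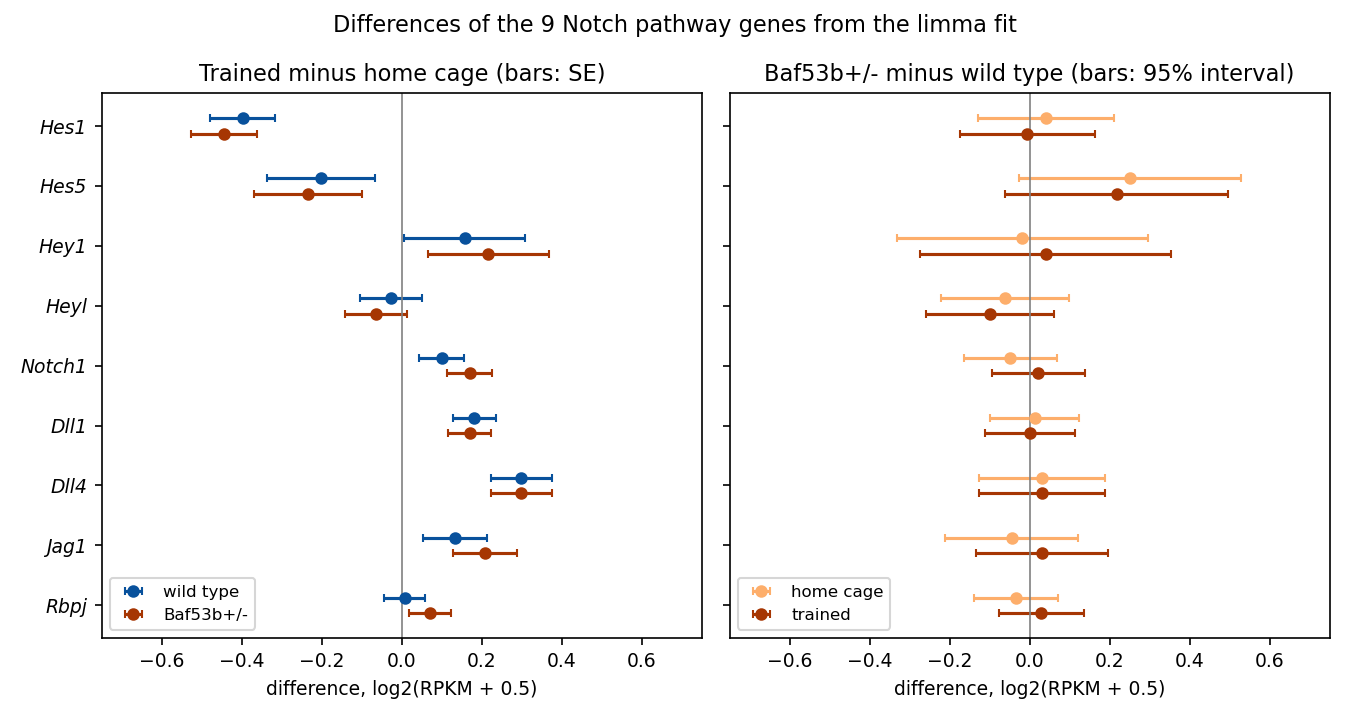
Points are differences on the log2(RPKM + 0.5) scale for the 9 genes: trained minus home cage with SE bars on the left, and Baf53b+/- minus wild type with 95% intervals on the right. On the left Hes1 lies near -0.40 and Dll4 near 0.30 in both genotypes; on the right all 18 intervals include 0, and Hes5 lies farthest from it.

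Genotype did not enter the choice of the genes and was tested. No difference between heterozygotes and wild types was called for any of the 7 testable genes in the home cage, after training or averaged over both, where 0.00807%, 0.00807% and 0.0242% of all genes were called by limma. At an unadjusted p under 0.05 there were 0, 0 and 1 of the 7, beside 3.52%, 3.69% and 4.49% of all genes. The 1 was Hes5. It averaged 3.74 ± 0.902 RPKM in home cage heterozygotes against 3.03 ± 0.557 RPKM in wild types, and 3.09 ± 0.709 against 2.57 ± 0.464 RPKM after training (SD, n = 6). Its averaged difference was 0.23 on the log2(RPKM + 0.5) scale (SE 0.10, limma unadjusted p = 0.0218, adjusted p = 0.999), with overlapping groups in both conditions. Of the choroid plexus markers, 13 of 13 had a positive averaged genotype difference, with a median of 0.48. So had 15 of 16 endothelial (median 0.05), 8 of 8 oligodendrocyte (0.06), 8 of 9 microglia (0.04) and 7 of 7 meningeal and fibroblast markers (0.17), 6 of 12 astrocyte and 4 of 6 immature neuron and progenitor markers, with none called in any of these lists. Without the choroid plexus rich libraries the Hes5 difference was 0.28, and with sex in the model it was 0.20. Exact two-sided permutation tests of the mean RPKM over all splits of 12 animals into 6 and 6, 1 for each of the 9 genes in each condition, gave 18 p-values from 0.123 to 0.978. The smallest p that 6 animals against 6 allow is 0.00216.

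The response of these genes to training was also compared between genotypes by the interaction term. Of the 7 testable genes, 0 were called by limma and 0 had an unadjusted p under 0.05, where 0% and 2.49% of all genes did. For Hes1 the interaction, the heterozygous response less the wild-type one, was -0.05 on the log2(RPKM + 0.5) scale (SE 0.12, 95% interval -0.29 to 0.19, limma adjusted p = 0.987). For Dll4 the same quantity was 0.00 with an interval of -0.22 to 0.22 (limma adjusted p = 0.9999, fit without the expression filter). Both intervals are wide beside the averaged training differences of -0.42 for Hes1 and 0.30 for Dll4, so they do not show that the genotypes responded alike. Genotype differences of Hes1 itself were 0.04 (SE 0.08) in the home cage and -0.01 (SE 0.08) after training, and those of Dll4 were 0.03 (SE 0.08) in each condition.

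Other genes of the pathway and relatives of its Hes and Hey genes were read from a list of 77, of which 75 matched the table and 69 passed the filter. The list was fixed with earlier results of these data known, so calls on it are a description and no independent test. After training, averaged over genotypes, 4 of the 69 rose and 0 fell by limma's adjusted p, where 3.26% of all genes rose and 0.911% fell; 10 had an unadjusted p under 0.05, where 16.8% of all genes did. The median difference of the list was 0.01 on the log2(RPKM + 0.5) scale, beside 0.00 over all genes. Spen, a corepressor that holds RBPJ target genes silent, rose from 9.72 to 10.9 RPKM in wild types and from 9.95 to 11.6 RPKM in heterozygotes (averaged difference 0.18, SE 0.03, adjusted p = 0.000237). Bhlhe40, a basic helix-loop-helix repressor related to the Hes proteins, rose by 0.17 (SE 0.03, adjusted p = 0.00227), with means of 38.0 and 43.8 RPKM in home cage and trained wild types and 38.1 and 42.1 RPKM in heterozygotes. Maml1, a Mastermind coactivator, rose by 0.14 (SE 0.03, adjusted p = 0.0160), from 3.05 to 3.31 RPKM in wild types and from 2.99 to 3.42 RPKM in heterozygotes. Numb, an inhibitor that removes Notch receptors from the cell surface, rose by 0.11 (SE 0.03, adjusted p = 0.0309). Numb lost its call in 10 of the 24 fits that left out a library (highest adjusted p = 0.0575), with median centring (0.0616), with the endothelial and astrocyte covariates (0.0506 and 0.0877) and without the 6 choroid plexus rich libraries (0.0596). Without those 6 libraries Maml1 also lost its call (adjusted p = 0.116), with a difference of 0.13.

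By role, 0 of 5 other ligand genes, 0 of 3 other receptor genes, 0 of 5 genes of sugar modifying enzymes, 0 of 9 protease genes and 0 of 4 Id genes were called after training in the average over genotypes. Called genes were 1 of 15 ubiquitin and trafficking genes (Numb), 1 of 7 genes of the nuclear complex (Maml1), 1 of 17 corepressor genes (Spen) and 1 of 4 other Hes and Hey family genes (Bhlhe40). Within single genotypes, Spen and Bhlhe40 rose in wild types (0.16 and 0.21 on the log2(RPKM + 0.5) scale, adjusted p = 0.0499 and 0.0249) and Spen rose in heterozygotes (0.20, adjusted p = 0.00778). Of all genes 0.96% rose in wild types and 0.887% in heterozygotes. Their wild-type calls were not stable, as the count of 2 went to 0 or 1 in most of the alternatives tried. No gene of the list was called for genotype or for the interaction.

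**Figure D3:**
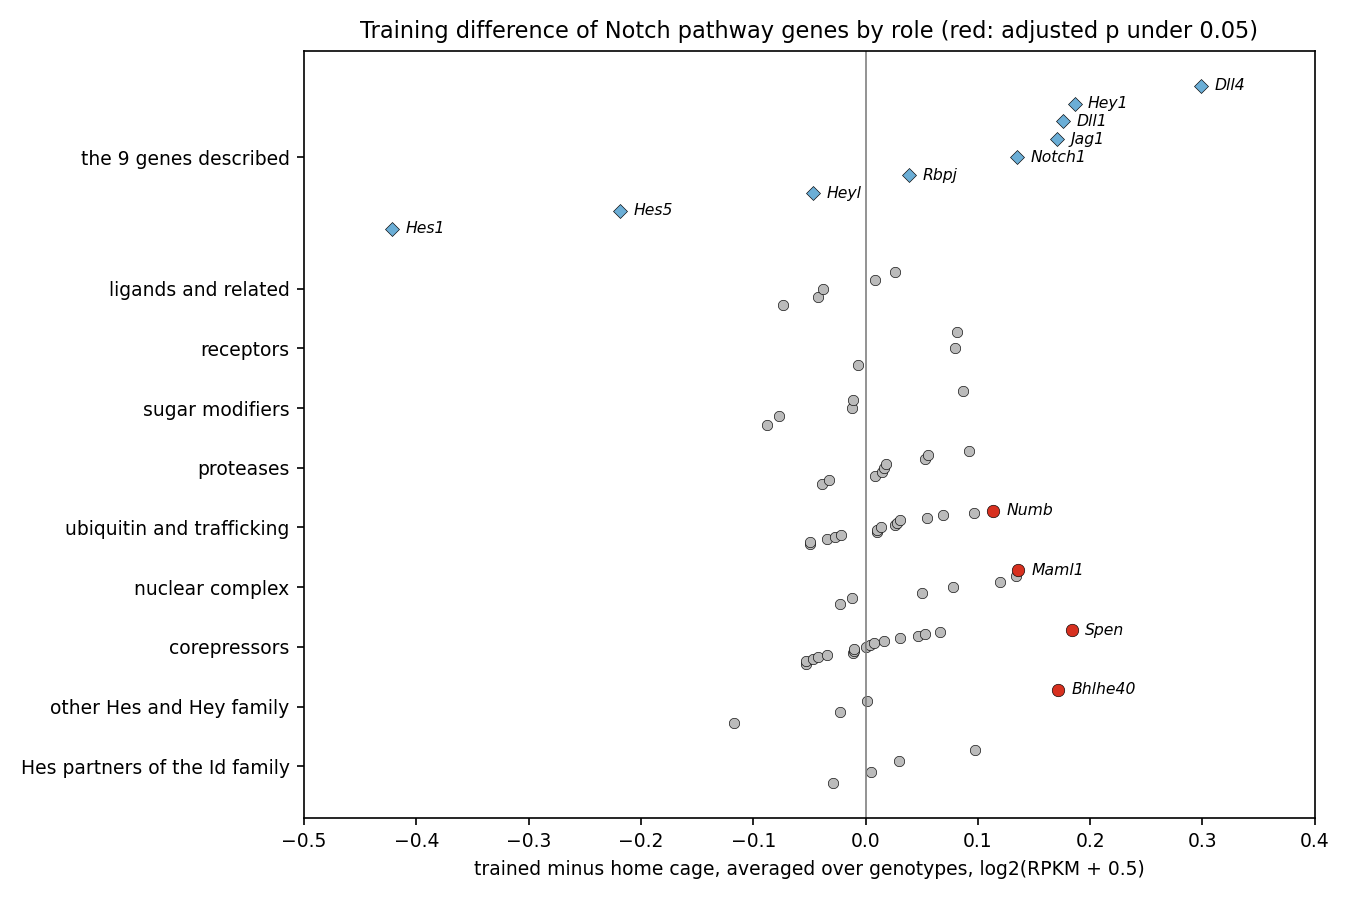
Points are training differences averaged over genotypes on the log2(RPKM + 0.5) scale, by role on the y axis. Circles are the 69 tested genes of the wider list of pathway genes and relatives, red where limma's adjusted p was under 0.05. Blue diamonds are the 9 genes, given without a test. The red genes are Spen, Bhlhe40, Maml1 and Numb, between 0.11 and 0.18, while most circles lie within 0.10 of 0.

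Markers of the cell types that use the pathway were read beside these genes. Of 16 endothelial markers 12 had a positive averaged training difference, with a median of 0.06 on the log2(RPKM + 0.5) scale, and 1 was called, the glucose transporter gene Slc2a1 (0.18, SE 0.03, limma adjusted p = 0.00167). The mean log2(RPKM + 0.5) of the endothelial list ran from 2.78 to 3.03 in home cage and from 2.78 to 3.02 in trained wild types, and from 2.84 to 3.08 and from 2.98 to 3.15 in the heterozygous groups. Of 12 astrocyte markers 10 were positive, with a median of 0.04 and none called. Of 3 tested arterial markers 2 were positive, with a median of 0.14, and 10 of 11 mural markers were positive, with a median of 0.05, again with none called. Immature neuron and progenitor markers had a median of 0.07 over 6 genes, with Sox11 called (0.30, SE 0.05, adjusted p = 0.000198). Choroid plexus markers had a median of -0.13 over 13 genes and hippocampal neuron markers one of -0.05 over 11, with none called in either. The genotypes went opposite ways for choroid plexus: 11 of 13 were positive in wild types (median 0.15) and 0 of 13 in heterozygotes (median -0.39). Oligodendrocyte markers were positive in 8 of 8 (median 0.08), microglia markers in 5 of 9 (median 0.01) and meningeal and fibroblast markers in 6 of 7 (median 0.17), also with none called. No marker with an entry in the table was at 0 in all libraries.

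Hes1 and Dll4 were refitted with the endothelial, astrocyte or choroid plexus list mean or sex in the model, each in its own fit. With the endothelial list mean as a covariate the averaged training difference was -0.43 for Hes1 and 0.28 for Dll4, and with the astrocyte list mean it was -0.40 and 0.28. With sex as a covariate it was -0.44 and 0.31, and with the choroid plexus list mean -0.42 and 0.30. Without the 6 choroid plexus rich libraries it was -0.46 and 0.35. In those 6 libraries Hes1 ran from 6.30 to 6.76 RPKM in 3 home cage animals and from 5.10 to 5.28 RPKM in 3 trained animals. The other lists, such as those of microglia and hippocampal neurons, were not used as covariates. The part of other cell types in the differences, with or without a list here, was not tested.

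**Figure D4:**
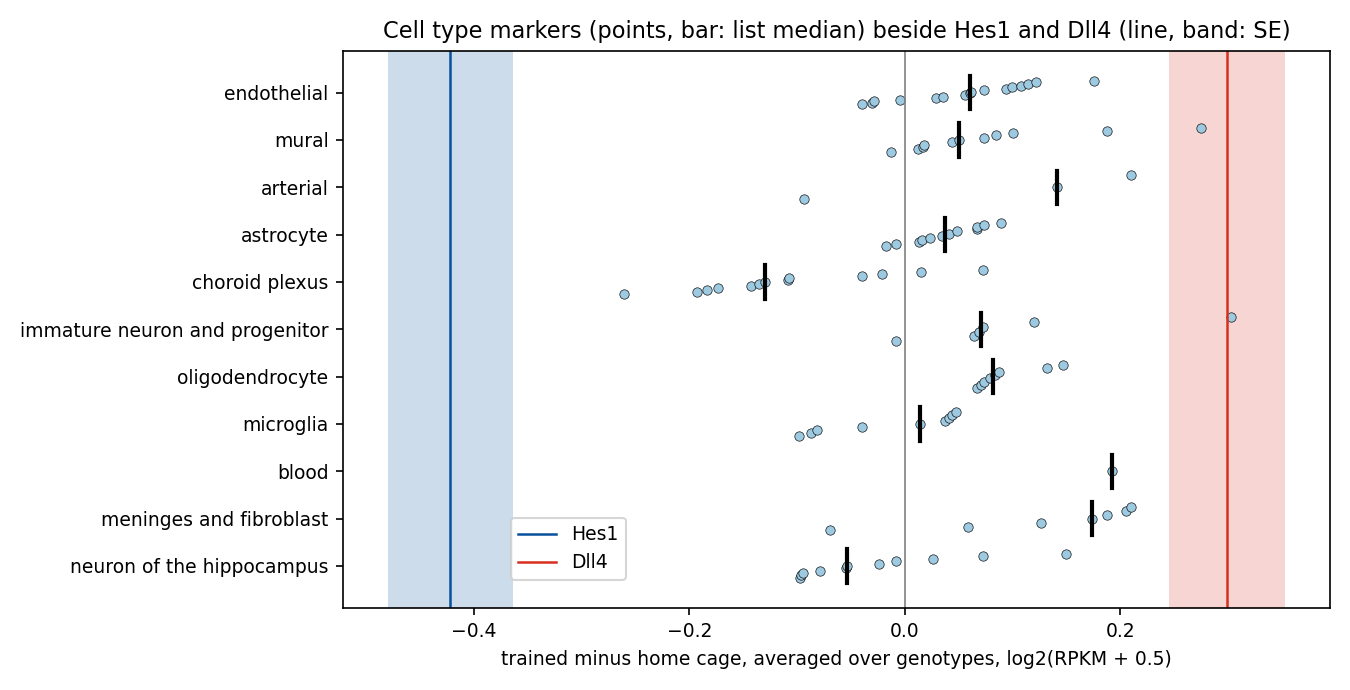
Points are averaged training differences of the tested marker genes by cell type list, on the log2(RPKM + 0.5) scale, with a bar at the list median; the lines and bands are the difference and SE of Hes1 (blue) and Dll4 (red). List medians lie between -0.13 and 0.19, and Hes1, at -0.42, lies below every marker plotted.

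Variation among animals of the same group was compared by subtracting group means, over 24 libraries that share their tissue and preparation, and is given as a description. Among the 36 pairs of the 9 genes, Pearson's r ran from -0.43 to 0.58 with a median of 0.13, and 2 pairs were above 0.5, Hey1 with Dll4 (0.58) and Hes5 with Dll4 (0.52). The 2 trained animals far above the others in Hey1 (36.4 and 38.6 RPKM) had Dll4 at 1.07 and 1.09 RPKM. The Dll4 means of their groups were 0.873 and 0.901 RPKM. How far these 2 animals carry the r of Hey1 with Dll4 was not tested. Heyl varied most closely with Efnb2, the arterial ephrin gene, at r = 0.82, followed by the immature neuron marker Tubb3 at 0.76 and the astrocyte marker Fgfr3 at 0.71. Its r with the arterial list mean, which holds Efnb2, was 0.74. With the immature neuron and progenitor list mean, which holds Tubb3, it was -0.18, and with the astrocyte list mean 0.30. The home cage heterozygote highest in Heyl also had its group's highest summed RPKM of arterial markers (13.2) and immature neuron and progenitor markers (201). The same held for the trained wild type highest in Heyl, at 16.6 and 177 RPKM. How far these 2 animals carry the r values of Heyl was not tested. Jag1 varied with the arterial marker Sema3g at r = 0.71, followed by the neuron marker Rbfox3 at 0.64. Its r was 0.25 with the arterial list mean and 0.18 with the hippocampal neuron list mean. Notch1 varied with the pericyte and oligodendrocyte precursor marker Cspg4 at r = 0.67, followed by the neuron marker Grin2b at 0.57. Its r was 0.04 with the mural list mean, which holds Cspg4, and -0.05 with the hippocampal neuron list mean. Dll4 had its highest marker r with Csf1r, a microglia marker, at 0.59. Of the list means its r was highest with microglia, at 0.52, followed by mural at 0.31 and endothelial at 0.21. With the arterial list mean the r of Dll4 was 0.06. For Hey1 the r was -0.06 with the endothelial, 0.10 with the mural and -0.23 with the arterial list mean. Its highest r with a list mean was 0.39, with oligodendrocytes. For Hes1 the highest marker r was 0.53, with the synaptic vesicle gene Syt1. The hippocampal neuron list, which holds Syt1, went the other way: its mean had the lowest r of the list means with Hes1, -0.37. The highest was 0.16, with the arterial list mean.

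Of all tested genes, those most like Hes1 after group means were subtracted were Zbtb46 (r = 0.84, Spearman's rho 0.87), Necab2 (r = 0.79), Idh3a (r = 0.79), Igfbp3 (r = 0.76) and Lancl2 (r = 0.76). The most opposed to Hes1 were Adcy2 (r = -0.81), Extl1 (r = -0.78) and Pop1 (r = -0.74). For Dll4 they were 2510012J08Rik (r = 0.75), Spns1 (r = 0.72), Ckb (r = 0.69), Coro1b (r = 0.68) and Capn10 (r = 0.68), opposed by Klhl28 (r = -0.76), Actr6 (r = -0.72) and Exoc2 (r = -0.71). Without that subtraction, where training itself adds to the likeness, Hes1 was most like Asph, Srsf5 and Zfp330 (r = 0.78, 0.78 and 0.77). Dll4 was then most like Slc25a25, D4Wsu53e and Nab2 (r = 0.86, 0.85 and 0.84).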

How the data were processed

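The authors deposited 1 table of RPKM values (reads per kilobase and per M reads) for 19661 genes, with mm9 positions and 1 column per library. Per the labels' protocols, RNeasy minikit RNA from bilateral dorsal hippocampus went into unstranded TruSeq RNA v2 libraries, read single-end for 50 cycles on an Illumina HiSeq instrument, in 4 pools with every behavioural group in each flow cell. Not given in the sources used here are the pool of each library, which kept any batch term out of the fits, the annotation, the read total behind RPKM and how reads with several matches were treated. CASAVA 1.8.2 and Bowtie 0.12.8 are named in the submitters' processing notes. Where genes overlap or lie antisense, their reads are mixed. Each library has its own number in the labels and was taken as 1 animal; if any share a source, p-values measure in part technical spread.

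Depth was recovered from single-exon genes, 303 in all, of which each library used those above 0 and under about 30 reads. These were 81 to 103 genes per library. At the depth taken, 72.5% to 86.3% of these values in a library lay within 0.05 of whole reads. The median share over the totals tried was at most 7.32%. Read numbers per gene use GENCODE M21 transcript lengths and are approximate. RPKM keeps no counts for spliced genes of unstated models, so no count test was run.

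Values were analysed as log2(RPKM + 0.5) with limma 3.58.1 in R 4.3.3: 12399 genes averaging 1 RPKM or more, 4 groups in a single fit, empirical Bayes with trend and robust settings, and Benjamini-Hochberg adjusted p under 0.05 over all tested genes. Dll4 and Heyl were under the filter and took their differences from the fit of all 19661 genes. The 7 comparisons were training in each genotype, genotype in each condition, both averages and the interaction. The fit was checked on simulated data. Promoters came from a RefSeq table for GRCm38.p6, which is not the build of the deposited positions.

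The genes described, the wider pathway list and the marker lists were chosen with earlier results of these data known. Named by rule were the 9 genes, Actl6b, the genes called in the wider list, the 5 most and 3 least like genes of Hes1 and Dll4 (3 without subtraction of group means), up to 3 markers per gene, and Fos, Arc and Egr1. Slc2a1 and Sox11 were named after their values were seen, as the only markers called. Alternatives were other pseudocounts, no filter, other scalings, no trend, only the groups compared and leaving out libraries. Further ones had the endothelial, astrocyte or choroid plexus list mean or sex as a covariate.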

Additional observations from a re-analysis of the deposited data

Results flagged for a closer look

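Among 52 combinations of 13 genes (the 9 Notch pathway genes and the 4 others that rose) and 4 groups, 3 held a library far from the others of its group by Dixon's criterion, a rate that chance gives in about 1 of 20. Hey1 stood at 36.4 RPKM in 1 trained wild type, where the next value was 21.2 RPKM, and at 38.6 RPKM in 1 trained heterozygote, where the next was 20.9 RPKM. Heyl stood at 0.972 RPKM in 1 trained heterozygote, where the next was 0.863 RPKM.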

How the results depend on the processing

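Hes1 and Dll4 kept the sign of their training difference in all 12 alternatives within each genotype. Hes1 ran from -0.43 to -0.37 in wild types and from -0.51 to -0.41 in heterozygotes, and Dll4 from 0.21 (pseudocount 1) to 0.44 (pseudocount 0.1) in each. Of the 7 testable genes among the 9, the 1 called in wild types became 0 without the choroid plexus rich libraries. The 2 genes of the wider list that rose in wild types became 1 with pseudocount 0.1, pseudocount 1, no filter or only the groups compared. They also became 1 without the choroid plexus rich libraries or with sex as a covariate. They became 0 with median centring, trimmed mean scaling or the astrocyte covariate. The 4 that rose in the average became 2 without the choroid plexus rich libraries. Leaving out 1 library gave 0 to 2 and 3 to 4 of these, 0 to 1 that fell in the average, and 1 to 2 and 2 to 3 of the 9 genes called in heterozygotes and in the average. Calls over all genes, 134, 128 and 517 in wild types, heterozygotes and the average, became 65, 51 and 262 without the choroid plexus rich libraries, 75 and 85 with only the groups compared, and 84 in wild types with the astrocyte covariate. Genotype calls over all genes became 2 from 1 after training (pseudocount 1, median centring, trimmed mean scaling, no trend) and 5 from 3 in the average (no filter). The causes were not tested.

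Differences that changed sign were all uncalled. The wild-type training difference of Rbpj ran from -0.013 (median centring) to 0.0088 and was positive in 9 of 12 alternatives, and that of Heyl was 0.0091 without the choroid plexus rich libraries. The Dll4 interaction was -0.0062 with pseudocount 0.1, -0.0089 with the choroid plexus covariate and -0.019 with the endothelial one. The Dll1 interaction was 0.0032 with median centring, 0.0018 with the astrocyte covariate and 0.0056 with sex. Without the choroid plexus rich libraries the genotype difference was -0.030 for Dll4 in the home cage and, averaged, -0.0085 for Hes1, 0.00011 for Notch1 and 0.0034 for Rbpj, and the Hes5 interaction was 0.13. With sex it was -0.0047 for Dll1 in the home cage and, averaged, -0.0058 for Hey1, -0.0019 for Dll1 and 0.0034 for Rbpj, and the Hes5 interaction was 0.034. A fit of only the groups compared has no value for averages or the interaction. No paired analysis was possible because the groups share no replicate numbers. Depth limits Dll4 and Hes5 most, at about 68 and 93 reads in their lowest libraries.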
